A study of Bos taurus with 179 samples.

Results

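Oocytes of 100–109 μm in diameter were compared with oocytes of 110–119 μm, which are adjacent size groups near the end of the growth phase of the bovine oocyte. The comparison was chosen by measured diameter and not by expression. It used the raw count columns of the 18 oocytes of 100–109 μm and the 19 oocytes of 110–119 μm that the study kept after quality control, 37 of the 179 deposited oocytes, of which the study left out 14. All were single oocytes of Bos taurus with a measured diameter and no treatment named in the labels, and every fold change below is given as 110–119 minus 100–109 μm. Polyadenylated RNA was captured from each lysate and amplified. Libraries were made in 2 replicates, replicate 1 read at 150 bp (11 against 12 oocytes) and replicate 2 read at 75 bp (7 against 7 oocytes), so that the library batch and the read length cannot be told apart. The labels name no animal, and oocytes of 1 animal may have been counted as independent.

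A growing oocyte transcribes and stores the mRNAs that it will use after transcription stops. Near full size, transcription falls silent as the chromatin condenses, and further control passes to the translation, polyadenylation and decay of stored messages. Genes for chromosome segregation, for the CCR4-NOT deadenylase and its BTG partners, and for mitochondria are all part of this store. Because the RNA was captured by its poly(A) tail, a change in tail length and a change in the number of transcripts cannot be told apart in these data, nor can a level relative to the other genes and RNA content per oocyte.

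The depth was uneven. In replicate 1 the oocytes of 100–109 μm had between 349196 and 7856854 counts (median 627581) and those of 110–119 μm between 876120 and 5958623 (median 2775303). In replicate 2 the medians were close, at 1352974 and 1332591 counts. Oocyte F29 alone held 52.9% of the counts of its group in replicate 1. The oocyte transcripts BMP15, BTG4, BCAR4, CPEB1 and AURKC had counts in 37 of 37 oocytes and ACTL8 in 35. Marker transcripts of other ovarian cells had low levels. The markers were limited to genes with a symbol in the study's lists of expressed and lowly expressed genes. The second list was drawn from these oocytes by low counts, so a low level was fixed in advance for any marker taken from it. The summed level of 5 granulosa and theca markers ranged from 0 to 16.6 CPM (counts scaled to library size), and that of 11 markers of stroma, endothelium and leukocytes from 0 to 24.2 CPM, against 5022 CPM or more for the 6 oocyte transcripts. COL3A1, CDH5, CD74, C1QB and CD4 had no count in any oocyte, which allows up to 0.0429 CPM over all 37, counting error only. In contrast, COL1A2 had counts in 36 of 37 oocytes (median 5.24 CPM, at most 21.7), HSD17B1 in 25 and CD68 in 15. FSHR had counts in 3 oocytes, with 16.6 CPM in F343. No pair of oocytes had identical counts, and the correlation of log2 CPM between pairs had a median of 0.931.

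**Figure D1:**
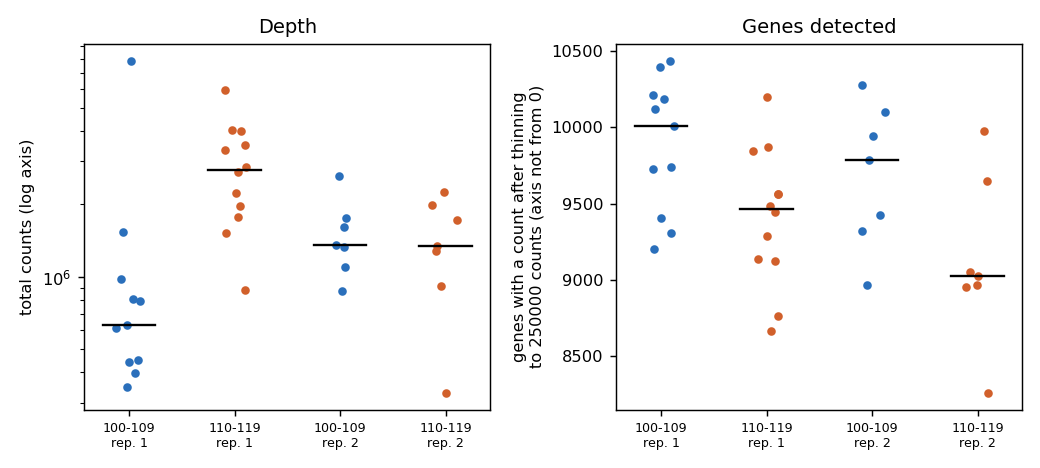
Total counts per oocyte on a log axis (left) and genes with at least 1 count after thinning to 250000 counts per oocyte (right, axis not from 0), by size group and library replicate. Points are oocytes and bars are medians. The total differed between the size groups in replicate 1 (medians 627581 and 2775303) but lay close in replicate 2, and the medians of genes detected were lower at 110–119 μm in both replicates.

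The 2 size groups separated on the main axis of the 500 most variable genes in replicate 1 and overlapped in replicate 2. With both replicates centred on their own mean, the first principal component of the 500 most variable genes held 46.8% of the variance. In replicate 1 the scores ran from −28.4 to −9.31 at 100–109 μm and from −3.28 to 33.3 at 110–119 μm, with no overlap. In replicate 2 they ran from −23.5 to 12.7 and from −13.0 to 28.6. With all genes kept, the scores overlapped in replicate 1 too, reaching −10.9 at 100–109 μm and starting at −14.4 at 110–119 μm. F343 had the highest score of the 100–109 μm oocytes of replicate 2, and G229 the lowest of the 110–119 μm oocytes. Within a size group the score did not follow diameter closely, with Pearson's r of −0.44 and 0.19 in replicate 1 (n = 11 and 12 oocytes) and −0.30 and 0.00 in replicate 2 (n = 7 each). It went with the number of genes detected at equal depth, with r of −0.73, −0.82, −0.93 and −0.77 in the same order. With the log10 of the total counts r was −0.43, 0.61, 0.59 and 0.51. These are descriptions over oocytes that share their library batch, and the score and the number of genes come from the same counts.

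**Figure D2:**
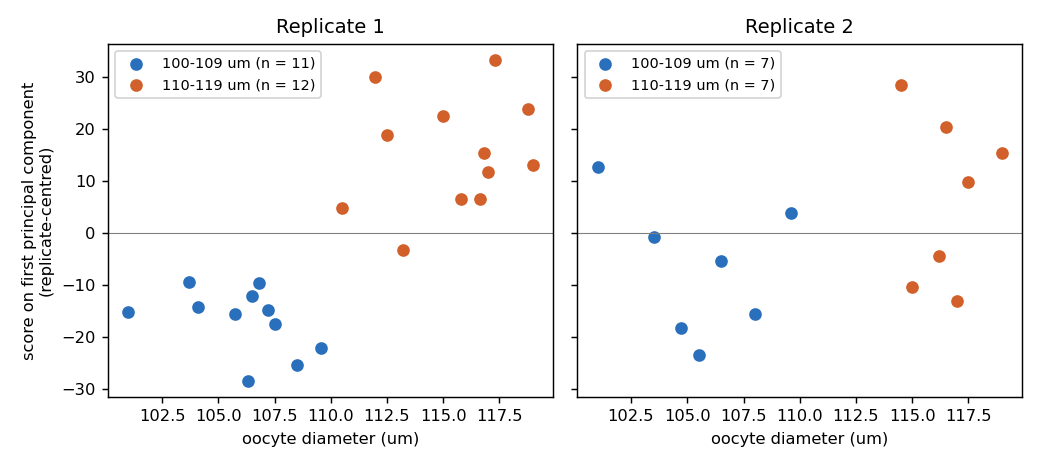
Score of each oocyte on the first principal component (500 most variable genes, replicate means removed) against its diameter in μm, for replicate 1 (left) and replicate 2 (right). Each point is an oocyte. The size groups do not overlap in replicate 1, where 110–119 μm starts at −3.28 and 100–109 μm ends at −9.31, and they overlap in replicate 2.

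Fewer genes were detected in the larger oocytes at equal depth. After thinning to 250000 counts, the oocytes of 100–109 μm had between 8967 and 10440 genes with a count (median 9866, n = 18) and those of 110–119 μm between 8259 and 10200 (median 9289, n = 19). The difference, with both replicates weighted equally, was −519 genes (permutation of the size groups within replicate, two-sided p = 0.0034). It was −474 genes in replicate 1 (permutation p = 0.019) and −564 genes in replicate 2 (exact permutation test, two-sided p = 0.062). At the depth as sequenced the difference was 117 genes (permutation p = 0.71), made up of 901 genes in replicate 1 (permutation p = 0.040), where the larger oocytes had the higher totals, and −667 genes in replicate 2 (exact permutation test, two-sided p = 0.11).

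Summing the counts of each size group and replicate, 547 of 14087 genes (3.88%) were differentially expressed (DEGs), 281 lower at 110–119 μm (1.99%) and the others higher (1.89%). They were called by edgeR's quasi-likelihood test at an adjusted p of 0.05, with the replicate as a block. Each replicate was then tested alone with oocytes as units. In replicate 1, 4125 of 8370 genes were DEGs (49.3%), 2293 higher (27.4%) and 1832 lower (21.9%), and 2138 of 4418 when each oocyte was thinned to 250000 counts. In replicate 2 edgeR called 0 of 8038 genes (0%), with an unadjusted p under 0.05 for 691 genes and a smallest adjusted p of 0.508, and DESeq2 called 8, 7 higher and 1 lower. The number called from the sums moved widely with the oocytes and settings used. Without F29 it was 312 higher and 164 lower. It was 33 without F448, 1517 without F343 and 2 with all deposited oocytes. The last adds F108 and F240 to 100–109 μm. The rest of the 14 left-out oocytes went to sizes outside the comparison, which enter the same fit.

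Most genes had a fold change of the same sign in both replicates, and the median size was smaller in replicate 2. Over the 7602 genes tested in both replicates, 72.1% had the same sign, and the fold changes had a Pearson's r of 0.588 across genes, which are not independent replicates. The median absolute log2 fold change was 0.669 in replicate 1 and 0.323 in replicate 2, with median standard errors of 0.283 and 0.350. The 2257 genes called higher in replicate 1 and tested in both had a median log2 fold change of 1.19 there and 0.25 in replicate 2, with 79.6% of the same sign. For the 1555 called lower the medians were −1.04 and −0.46, with 87.8% of the same sign. Both sets were chosen by their replicate 1 values, so that a larger fold change in replicate 1 is built into their medians. Tested directly in the 37 oocytes, the fold change differed between replicates for 552 of 9664 genes (5.71%) by edgeR's interaction term, of which 492 had the lower value in replicate 2. Of the 530 that were also tested in each replicate alone, 44% had opposite signs in the replicates. In replicate 2 all 255 genes called higher from the sums and all 214 called lower that could be tested had the direction of the sums, which these oocytes helped to set. Of these, 142 and 77 had an unadjusted p under 0.05 there, against 691 of all 8038 genes tested (8.6%). The choice of genes partly from these oocytes raises these counts.

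**Figure D3:**
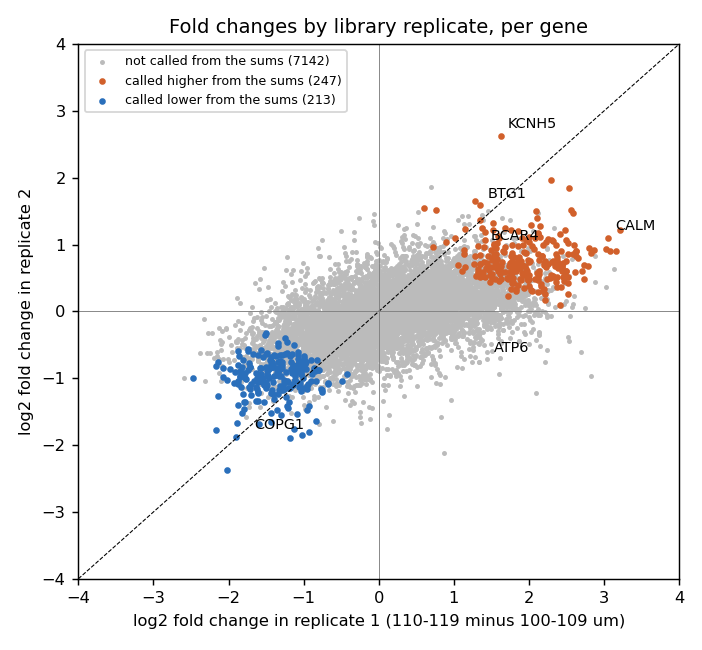
Log2 fold change (110–119 minus 100–109 μm) of each of the 7602 genes tested in both replicates, in replicate 1 (horizontal axis) and replicate 2 (vertical axis), with the line of equality dashed. Orange and blue mark genes called higher and lower from the sums. The cloud is wider along replicate 1, and genes called higher lie mostly below the dashed line, while KCNH5 and BTG1 lie above it and ATP6 lies at opposite signs in the replicates.

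The pattern also lay along a difference between the library replicates. In the 6 size groups outside the comparison, the log2 difference of replicate 2 minus replicate 1 was computed per gene. It correlated across genes with the fold change of replicate 1 (r = 0.532, 8370 genes) and of replicate 2 (r = 0.567, 8038 genes). Among the genes called higher from the sums, 96.8% of the 247 tested in replicate 1 were also higher in replicate 2 libraries than in replicate 1 libraries of the other sizes. Among the 251 called lower, 98.4% were lower in them. Over all 8370 genes the sign was the same for 71.4%, and for 78.6% of those called higher and 85.8% of those called lower in replicate 1. The part of this difference in the result was not tested.

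BCAR4 and BTG1 rose, with close fold changes in the replicates. BCAR4 (ENSBTAG00000048279), an oocyte transcript of cattle, had between 43.6 and 159 CPM (median 77.1) at 100–109 μm and between 116 and 489 (median 197) at 110–119 μm in replicate 1. In replicate 2 it had between 39.8 and 134 CPM (median 77.3) and between 125 and 336 (median 228). The groups overlapped at their edges in both replicates, and the lowest larger oocytes lay above the median of the smaller ones. From the sums BCAR4 rose by a log2 fold change of 1.52 (SE 0.26, edgeR adjusted p = 0.0283), with 1.35 in replicate 1 and 1.37 in replicate 2. BTG1 (ENSBTAG00000020330), an antiproliferative protein that binds the CCR4-NOT deadenylase, had medians of 11.7 and 28.1 CPM in replicate 1 and 12.5 and 61.5 CPM in replicate 2. It rose by 1.56 on the log2 scale (SE 0.35, edgeR adjusted p = 0.0338), with 1.35 and 1.59 in the replicates.

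**Figure D4:**
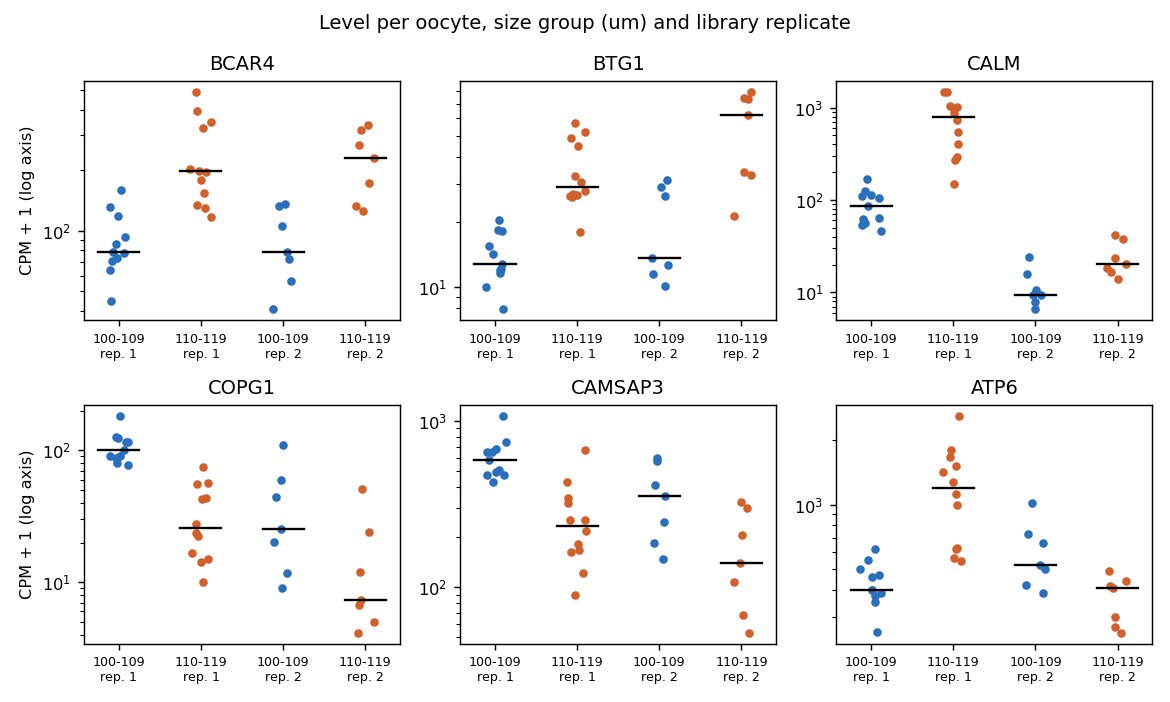
Level of 6 genes per oocyte as CPM + 1 on a log axis, by size group (μm) and library replicate, with medians as bars. BCAR4 and BTG1 have higher medians at 110–119 μm in both replicates, and COPG1 and CAMSAP3 lower ones. CALM sits at other levels in replicate 2, and the median of ATP6 is higher at 110–119 μm in replicate 1 and lower in replicate 2.

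CASP1, an inflammatory caspase, and KCNH5, a voltage-gated potassium channel, were also among the higher genes. CASP1 (ENSBTAG00000050239) had medians of 62.8 and 236 CPM in replicate 1 and 136 and 416.2 CPM in replicate 2, where 1 of the larger oocytes, G219, had 11.6 CPM. Its log2 fold change from the sums was 1.82 (SE 0.30, edgeR adjusted p = 0.0283). KCNH5 (ENSBTAG00000011379) ranged from 0 to 22.1 CPM and from 11.3 to 56.8 CPM in replicate 1, and from 2.85 to 37.4 and from 11.6 to 256 CPM in replicate 2. It rose by 2.27 (SE 0.45, edgeR adjusted p = 0.0283) and had the larger fold change in replicate 2, 2.63 against 1.62, a difference that did not pass the test (edgeR adjusted p = 0.38).

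Most of the other higher genes with a symbol had a larger fold change in replicate 1. CRIPT, a postsynaptic scaffold binding protein, had medians of 91.9 and 430 CPM in replicate 1, where the groups did not overlap, and 197.6 and 454 CPM in replicate 2, where they did. ALKBH1, a nucleic acid demethylase, had medians of 87.3 and 501 CPM and of 318.6 and 739 CPM. CMC1, an assembly factor of cytochrome c oxidase, had medians of 74.1 and 408 CPM and of 301 and 598 CPM. CFAP36, CFAP210, C17H4orf33 and AASDHPPT had log2 fold changes from the sums between 1.32 and 1.92, between 1.53 and 2.52 in replicate 1 and between 0.61 and 1.00 in replicate 2. CFAP210 belongs to the ciliary genes, and AASDHPPT attaches phosphopantetheine to carrier proteins. The gene ID named CALM (ENSBTAG00000032705), a calmodulin, had the largest change of this set in replicate 1, from a median of 85.9 to 799 CPM, and 8.39 and 19.0 CPM in replicate 2. The level of CALM differed between the replicates in both groups, and calmodulin has near-identical gene copies that may share reads, so its value is uncertain. Without a symbol, ENSBTAG00000017329 and ENSBTAG00000003144 rose by 1.91 and 2.11 on the log2 scale.

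COPG1, ATP6AP1 and CAMSAP3 were among the lower genes with the smallest adjusted p. COPG1 (ENSBTAG00000013212), a coat subunit of vesicles that return from the Golgi, had between 76.1 and 183 CPM (median 100) at 100–109 μm and between 8.96 and 73.4 CPM (median 24.7) at 110–119 μm in replicate 1, with no overlap. In replicate 2 it had between 8.06 and 108 CPM (median 24.4) and between 3.13 and 50.2 CPM (median 6.34), with overlap. It fell by 1.88 on the log2 scale (SE 0.36, edgeR adjusted p = 0.0283). The level of the smaller oocytes in replicate 2 lay near that of the larger ones in replicate 1. ATP6AP1 (ENSBTAG00000012117), an accessory subunit of the vacuolar proton pump, had medians of 36.4 and 17.97 CPM and of 25.1 and 10.9 CPM. CAMSAP3, which caps the minus ends of microtubules, had medians of 584 and 233.3 CPM in replicate 1 and 350 and 140 CPM in replicate 2, and fell by 1.44 (SE 0.29, edgeR adjusted p = 0.0292).

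CLU, CTSD, ALG12 and CARD10 also fell. CLU, an extracellular chaperone, had medians of 67 and 54.5 CPM in replicate 1 and 13.1 and 4.61 CPM in replicate 2, and did not pass the test in replicate 1 alone (edgeR adjusted p = 0.051). CTSD, a lysosomal protease, had medians of 45.2 and 19.3 CPM and of 32.1 and 12.1 CPM. ALG12, a mannosyltransferase of N-glycan assembly, fell by 2.02 (SE 0.41, edgeR adjusted p = 0.0292), and 1 smaller oocyte of replicate 2, F343, had no count of it. CARD10, a scaffold of NF-kappaB signalling, had medians of 108 and 25.7 CPM in replicate 1 without overlap, and 38.6 and 11.4 CPM in replicate 2. CYB5R3, CCDC22, BRINP2, APLP1 and ARHGAP22 had log2 fold changes from the sums between −1.96 and −1.22 and, in replicate 2, between −1.67 and −0.85. Without F29, CLU (−1.26 against −1.75), CCDC22 (−1.10 against −1.93) and ARHGAP22 (−0.80 against −1.22) did not pass. ENSBTAG00000009513, without a symbol, had the smallest adjusted p of all genes (log2 fold change −2.33, SE 0.32, edgeR adjusted p = 0.00902), with medians of 52.8 and 13.8 CPM in replicate 1 and 22.5 and 7.53 CPM in replicate 2. ENSBTAG00000038381 fell by 1.77 on the log2 scale.

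Gene lists were counted over the members paired with a symbol, which cover mostly names from A to C, so that a list is a part of its pathway. The median log2 fold change over all genes tested was −0.06 from the sums, 0.08 in replicate 1 and near 0 in replicate 2. Of 21 kinetochore and centromere genes, 3 rose and 0 fell from the sums, and in replicate 1 11 of 20 rose and 0 fell, where 1.89% of all genes rose from the sums and 27.4% rose and 21.9% fell in replicate 1. Their median was 0.56 from the sums, 0.83 in replicate 1 and 0.42 in replicate 2. CENPE, the motor that carries chromosomes along microtubules, had medians of 115 and 342 CPM in replicate 1 and 463.8 and 910 CPM in replicate 2. CENPH and CENPS, of the inner kinetochore, rose by 1.23 and 1.31 on the log2 scale, and CENPS had a smaller change in replicate 2 (0.51 against 1.78, edgeR adjusted p of the difference = 0.033). Without F29, CENPP also passed from the sums (1.05 against 0.97, edgeR adjusted p = 0.0427).

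**Figure D5:**
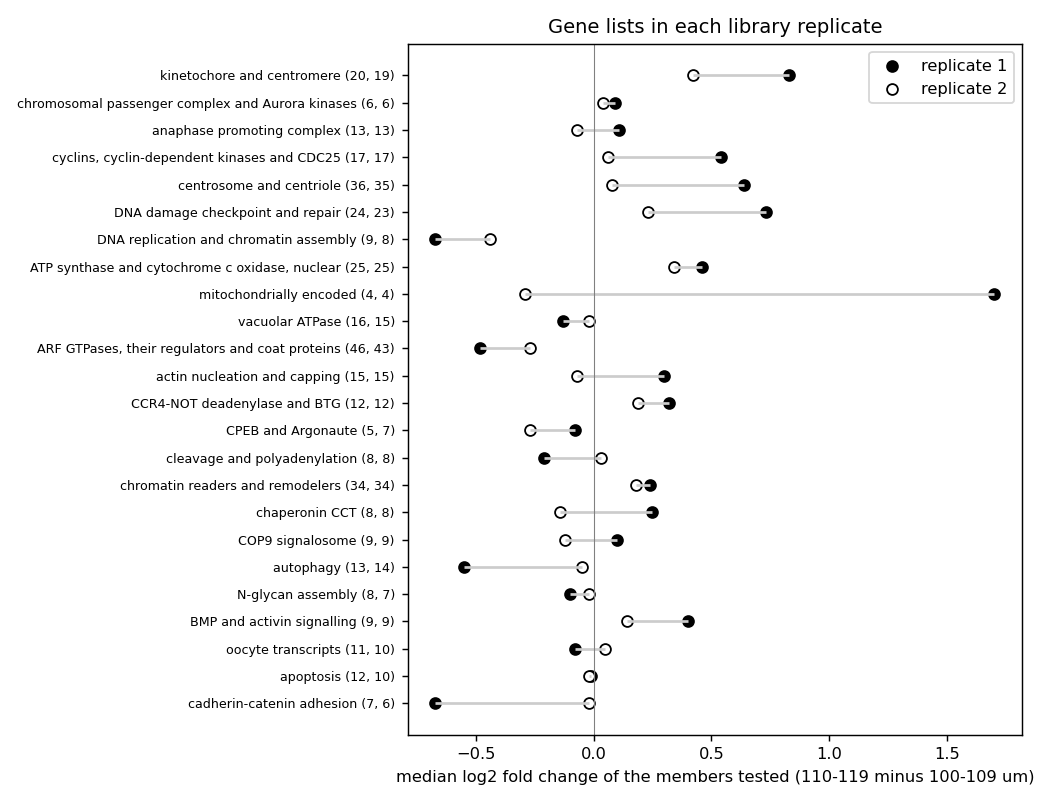
Median log2 fold change (110–119 minus 100–109 μm) of the members tested of 24 gene lists in replicate 1 (filled) and replicate 2 (open), with the number of members tested in each replicate in brackets. The kinetochore list has medians of 0.83 and 0.42, and the 4 mitochondrially encoded genes have 1.70 and −0.29.

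The anaphase promoting complex, which orders the degradation of cyclins and securin, had 13 members in its list. CDC26 and CDC27 rose and the activator CDC20 fell from the sums, against 1.89% and 1.99% of all genes. In replicate 1, 3 of 13 rose and 2 fell, against 27.4% and 21.9% of all genes. CDC27 had medians of 157 and 304.7 CPM in replicate 1 and 738 and 1363 CPM in replicate 2. CDC20 had 312 and 263.7 CPM and 191 and 97.02 CPM, and did not pass the test in either replicate alone. Its log2 fold change from the sums was −1.16, and −0.73 without F29, where it did not pass. None of 17 cyclins, cyclin-dependent kinases and CDC25 genes passed from the sums, while 8 rose and 4 fell in replicate 1, against 27.4% and 21.9% of all genes. CDK1, the kinase of the maturation promoting factor, had 227.2 and 592 CPM in replicate 1 and 794 and 821 CPM in replicate 2, and its fold change differed between the replicates (edgeR adjusted p = 0.022). CCNB1, its partner, had 1266 and 1882 CPM and 931 and 1071 CPM. CCNH, of the CDK-activating kinase, had 184 and 560 CPM and 297.9 and 302 CPM. No Aurora kinase or passenger gene of 6 passed from the sums. In replicate 1, 1 of 6 rose and 0 fell, against 27.4% and 21.9% of all genes. AURKA had 4596 and 6366 CPM and 2882 and 2348 CPM, with a log2 fold change of −0.20 from the sums that turned positive without F29 (0.14), and AURKC had 221.4 and 163 CPM and 103 and 100 CPM.

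Of 39 centrosome and centriole genes, CEP295, CETN3 and CCP110 rose and CEP72 fell from the sums, against 1.89% and 1.99% of all genes. In replicate 1, 19 of 36 rose and 7 fell, against 27.4% and 21.9% of all genes. Without F29, CEP72 did not pass (log2 fold change −0.97 against −1.41). CETN3, a centrin, had medians of 442 and 2387 CPM in replicate 1 and 1164 and 2059 CPM in replicate 2, with a smaller change in replicate 2 (0.45 against 2.47, edgeR adjusted p of the difference = 0.017). CEP295, a centriole assembly protein, had 29.01 and 76.9 CPM without overlap in replicate 1 and 111 and 176 CPM in replicate 2. Of 24 genes of DNA damage checkpoint and repair, ATRX rose and the endonuclease APEX2 fell from the sums. ATRX, a chromatin remodeler, had 72.6 and 217 CPM in replicate 1 and 577 and 1318 CPM in replicate 2. In replicate 1, 12 of the 24 rose and 1 fell, against 27.4% and 21.9% of all genes. Without F29, APEX2 did not pass (−1.34 against −2.10). Of 9 genes of DNA replication and chromatin assembly, 1 was called, the replication licensing factor CDT1, which fell by 1.85 on the log2 scale and did not pass without F29 (−1.34). In replicate 1, 6 of these 9 fell and 1 rose, against the same shares of all genes as above, and the medians were −0.67 in replicate 1 and −0.44 in replicate 2.

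Of 49 coat proteins and regulators of ARF GTPases, 6 fell and 0 rose from the sums, with a median of −0.32. AP3B2, AP3D1, ARFIP2 and COPG1 were among them. Without F29, AP3D1 (−1.07 against −1.24) and ARFIP2 (−1.07 against −1.50) did not pass. From the sums 1.99% of all genes fell. In replicate 1, 19 of 46 fell and 6 rose, against 21.9% and 27.4% of all genes, and the medians were −0.48 in replicate 1 and −0.27 in replicate 2. AP3B2, an adaptor of endosomal sorting, had between 43.5 and 83.2 CPM and between 6.42 and 36.1 CPM in replicate 1, with no overlap. In replicate 2 it had between 16.6 and 62.9 CPM and between 0 and 33.3 CPM. No actin capping or nucleation gene of 16 passed from the sums. In replicate 1, 4 of 15 rose and 3 fell, against 27.4% and 21.9% of all genes. CAPZA2, an actin capping subunit, had 74.7 and 235 CPM in replicate 1 and 342 and 317 CPM in replicate 2 (edgeR adjusted p of the difference = 0.0029). ACTB had 460 and 207 CPM and 353 and 366 CPM. None of 17 autophagy genes passed from the sums, where their median was −0.60. In replicate 1, 6 of 13 fell and 3 rose, against 21.9% and 27.4% of all genes. ATG3, an enzyme of LC3 lipidation, had 196 and 672 CPM and 351 and 376 CPM. None of 7 cadherin and catenin genes passed from the sums, and 3 of 7 fell in replicate 1, against 21.9% of all genes, CDH3 and CTNND1 among them. Without F29, CDH3 passed from the sums (log2 fold change −1.14 against −0.93, edgeR adjusted p = 0.0348). CDH3 had 754 and 304.8 CPM and 328 and 194 CPM, and CTNND1 had 154 and 80.2 CPM and 85.5 and 106 CPM.

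The mitochondrially encoded transcripts rose in replicate 1 and in replicate 2 had fold changes below 0 (−0.71 to −0.20) that did not pass the test. The 4 mitochondrially encoded genes paired with a symbol are ATP6 and ATP8, of ATP synthase, and COX1 and COX2, of cytochrome c oxidase. The study had left out oocytes with many noncoding mitochondrial reads. In replicate 1 the share of the 4 genes in an oocyte's counts ranged from 0.250% to 0.525% (median 0.416%) at 100–109 μm and from 0.509% to 2.06% (median 0.838%) at 110–119 μm. The means differed by 0.601 percentage points (permutation test, two-sided p = 3e-05). In replicate 2 it ranged from 0.432% to 1.25% (median 0.499%) and from 0.297% to 0.710% (median 0.624%), a difference in means of −0.155 points (exact permutation test, two-sided p = 0.36), while the median was higher at 110–119 μm. Pooled with equal weights the difference was 0.223 points (permutation p = 0.070), and 0.134 points with all deposited oocytes (permutation p = 0.35). Each of the 4 genes had a lower fold change in replicate 2, with differences between −2.22 and −1.74 on the log2 scale (edgeR adjusted p between 0.00094 and 0.020). ATP6 had medians of 399 and 1197 CPM in replicate 1 and 523 and 406.9 CPM in replicate 2.

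Of 26 nuclear-encoded subunits and assembly factors of ATP synthase and cytochrome c oxidase, ATP5PD and ATP5PO rose and 0 fell from the sums, and 11 of 25 rose and 4 fell in replicate 1, against 27.4% and 21.9% of all genes. Their median log2 fold change was 0.46 in replicate 1 and 0.34 in replicate 2. ATP5PD, of the peripheral stalk, had medians of 182 and 616 CPM without overlap in replicate 1 and 411 and 683 CPM in replicate 2. ATP5F1B, the catalytic subunit, had 394 and 284 CPM and 158 and 93.7 CPM, and COX5A had log2 fold changes of 1.47 in replicate 1 and 0.34 in replicate 2.

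Among regulators of stored mRNA, BTG1 was the 1 gene of 13 of the CCR4-NOT deadenylase and BTG list that passed from the sums, against 3.88% of all genes, and 4 of 12 rose and 0 fell in replicate 1, against 27.4% and 21.9%. BTG4, the meiotic adaptor of the deadenylase, had between 1518 and 4305 CPM (median 2367) and between 4233 and 14000 CPM (median 6810) in replicate 1. In replicate 2 it had medians of 5130 and 5953 CPM, a smaller change (edgeR adjusted p of the difference = 0.045). CNOT7, a catalytic subunit, had 462 and 801 CPM and 993 and 1452 CPM. None of 7 CPEB and Argonaute genes passed from the sums, and 2 of 5 fell in replicate 1, against 21.9% of all genes, CPEB1 among them (edgeR adjusted p = 0.023). CPEB1, which binds the cytoplasmic polyadenylation element, had 1776 and 1325 CPM in replicate 1 and 1087 and 687 CPM in replicate 2. F29 had its highest level (5808 CPM), and without F29 its log2 fold change from the sums was −0.36 against −0.88. BMP15, the oocyte growth factor that acts on granulosa cells, had 1603 and 607 CPM in replicate 1 and 1894 and 2109 CPM in replicate 2, with log2 fold changes of −1.22, which passed in replicate 1 (edgeR adjusted p = 0.0035), and 0.11, and the difference between the replicates did not pass the test (edgeR adjusted p = 0.091).

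In the lists not yet named, ALG12 was the 1 gene called from the sums of 9 in N-glycan assembly, ATRX of 41 chromatin readers and remodelers, BCAR4 of 12 oocyte transcripts, CASP1 of 19 apoptosis genes and ATP6AP1 of 18 vacuolar ATPase genes, where 3.88% of all genes were called. In replicate 1, 3 rose and 1 fell of 8 in N-glycan assembly, 12 and 10 of 34 chromatin genes, 4 and 2 of 11 oocyte transcripts, 1 and 2 of 12 apoptosis genes and 3 and 2 of 16 vacuolar ATPase genes. No gene was called from the sums among 8 cleavage and polyadenylation factors, 8 chaperonin subunits, 9 COP9 signalosome genes and 12 genes of BMP and activin signalling. In replicate 1, 1 rose and 3 fell of 8 cleavage and polyadenylation factors, 2 of 8 chaperonin subunits rose, 4 rose and 2 fell of 9 COP9 signalosome genes and 1 rose and 1 fell of 9 in BMP and activin signalling, where 49.3% of all genes were called.

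The sums at 110–119 μm were also set beside those above 120 μm. Of the genes called higher, 99.2% had a higher sum at 110–119 μm than at both 100–109 and > 120 μm in replicate 1, and 86.5% in replicate 2. Over all genes tested the shares were 38.9% and 33.5%. Of the genes called lower, 98.2% and 71.2% were below both neighbours, against 44.9% and 24.6% of all genes tested. The 110–119 μm sums that chose these genes stand on one side of both comparisons, so the choice pushes the genes past both neighbours, and the shares are a description from which nothing is read. Genes called higher had a median log2 difference from 100–109 μm of 1.99 at 110–119 μm and 0.83 at > 120 μm in replicate 1, and of 0.77 and 0.50 in replicate 2. The summed CETN3 level of replicate 1 was 427.6 CPM at 100–109 μm, 2838 CPM at 110–119 μm and 884 CPM at > 120 μm. COPG1 had 138, 30.0 and 63.0 CPM, and ATP8 had 1322, 6101 and 1750 CPM. In replicate 2 the levels of CETN3 were 1881, 2465 and 2012 CPM.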

How the data were processed

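Single-cell RNA-seq of bovine oocytes gave 1 column per oocyte. Per the labels and the methods, the authors trimmed reads with Trim Galore (version 0.6.6), aligned them with HISAT2 to ARS-UCD1.2 and deposited raw counts per gene from SeqMonk, not normalized. How reads with several alignments and strand were treated is not given in the sources used here.

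Counts of IDs on more than 1 line were summed (21218 gene IDs). Symbols came from copies of the study's supplementary tables, 3569 IDs in all, and no gene coordinates were used. Oocytes were grouped by the labelled diameter, and their counts were summed per size group and replicate (16 sums, 8 size groups). edgeR (version 4.0.16, R 4.3.3) was used with filterByExpr (minimum count 10, minimum total 15), TMM, the replicate as a block and the quasi-likelihood test. P-values were adjusted by Benjamini-Hochberg over all genes. Standard errors are the absolute log2 fold change over the root of the F statistic. The replicate number marks a shared library batch and read length and so pairs the sums. Same-replicate sums deviated together (28 pairs, correlation 0.334 to 0.648, median 0.543). CPM was scaled by TMM. Principal components used the variance-stabilising transformation of DESeq2 (version 1.42.0). Measures per oocyte were tested with 100000 permutations within replicate, or exactly in replicate 2. ComBat-seq came from sva (version 3.50.0). Python 3.11.15, numpy 2.4.6, pandas 2.3.3 and matplotlib 3.10.9 were also used. The fits were also run on simulated data with 200 changed genes, and the outcome is not reported here. The depth per oocyte, from 328481 to 7856854 counts, sets the precision of low genes.

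Gene lists and the genes named were fixed with earlier results of these data known. Named were the 12 higher and 12 lower genes with a symbol, the smallest adjusted p and the same direction in both replicates, the 4 members with the smallest p of each list, a fixed set of oocyte, cell cycle and mitochondrial genes, and 2 IDs without a symbol in each direction. The text prints a part of them, and 1 gene and 1 list are not reported here. Alternatives were no block, RLE, DESeq2, no filter, single oocytes with raw or ComBat-seq counts, thinned counts, all deposited oocytes, only the sums compared, and leaving out sums and oocytes in turn.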

Additional observations from a re-analysis of the deposited data

Results flagged for a closer look

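In groups of 7 oocytes of replicate 2, 1 oocyte lay apart from the other 6 in 7 cases, 4.79% of those examined, where chance gives about 1 in 20. F343 of 100–109 μm was lowest for ALG12 (0 CPM), CCDC22 (0 CPM), ARHGAP22 (8.96 CPM) and BMP15 (814 CPM). G219 of 110–119 μm was lowest for CASP1 (11.6 CPM), F456 for AP3D1 (24.7 CPM) and F482 for BTG4 (2200 CPM).

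For 19 of the 130 genes that the naming rule gave and that could be tested, the fold change differed between the replicates by edgeR's interaction term, against 5.71% of all genes tested. The rule used p-values in part. Of the 19, 17 are among the 70 genes followed here, which were picked from the rule's genes with their values known, so that 17 of 70 is no share to compare. The values are the log2 fold change of replicate 2 minus that of replicate 1. The mitochondrially encoded genes had −2.04 (ATP8), −2.22 (COX1), −1.74 (COX2) and −2.11 (ATP6). Nuclear genes of the same enzymes had −1.11 (ATP5PD) and −1.10 (COX5A). Genes of the cell cycle and centrosome had −1.23 (CENPS), −1.39 (CDK1), −1.50 (CCNH) and −1.97 (CETN3). The others with a lower value in replicate 2 were CALM (−1.88), CFAP210 (−1.60), ARHGAP29 (−1.96), CAPZA2 (−2.15), BTG4 (−1.16) and ATG3 (−1.79). CTNND1 had the higher value in replicate 2 (1.10). The median depth was higher at 110–119 μm in replicate 1 and close between the size groups in replicate 2, and its part in these differences was not tested.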

How the results depend on the processing

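The 547 DEGs were chosen from these same counts, which favours a kept direction. All kept their direction in every alternative in which they were tested, while the number called did not hold. It was 0 without the replicate block, 2038 with DESeq2, 1317 with no filter, 4062 with single oocytes as units, 4232 with ComBat-seq counts, 2 with all 179 deposited oocytes and 22 with only the 4 sums compared. It was 668 with RLE (376 higher, 292 lower), 708 at 250000 counts 527 without F64 and 476 without F29 (312 higher, 164 lower), the last chosen after seeing the data. By edgeR without the block, 647 genes had an unadjusted p under 0.05. Leaving out 1 sum or 1 oocyte gave between 0 and 1517. By sum it was 1193 and 1190 without < 60 μm (replicates 1 and 2), 145 and 79 without 60–69 μm, 230 and 157 without 80–89 μm, 307 and 254 without 90–99 μm, 0 and 1478 without 100–109 μm and 0 and 1446 without 110–119 μm. With 1 sum left in an arm, it was assumed to vary like the other groups. By oocyte it was 1517 without F343, 33 without F448, 985 without F450, 844 without F456, 206 without F470, 83 without F482, 1206 without G229, 1393 without G443, 150 without G445, 93 without G451, 44 without G452 and 344 without G99. Within replicate 1 the number was 2138 at 250000 counts, with 4418 genes tested, and from 3837 to 4303 without 1 oocyte. Within replicate 2 DESeq2 called 8, and edgeR called 0 without any 1 oocyte.

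Of the list members tested, 6.44% were called, and 0% without the replicate block, 25.1% with DESeq2, 14.5% with no filter, 46.2% with single oocytes and 0.229% with only the 4 sums. Over all genes the shares were 3.88%, 0%, 14.5%, 7.33%, 37% and 0.183% in the same order. Genes detected differed by 117 at own depth and by −563.6 in replicate 2 alone. The mitochondrial share differed by 0.6009 points in replicate 1 alone and by −0.1553 in replicate 2 alone. The first principal component differed by 53.13 with all genes and by 12.96 in replicate 2 alone, against 24.93. Without the 110–119 μm sum of replicate 1 the log2 fold changes of ATP8, COX1, ATP6, BMP15 and AURKC were −0.08, −0.33, −0.74, 0.24 and 0.01, and without that of replicate 2 they were 2.0, 1.96, 1.52, −1.14 and −0.57. AURKA had 0.06 with single oocytes, 0.13 with ComBat-seq counts, 0.04 at 250000 counts and 0.14 without F29, and −0.28 without the 110–119 μm sum of replicate 1. The causes of these changes were not tested.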
